A study of Mus musculus with 3 samples.

Results

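Short CDR3α are the members described here: CDR3α amino acid sequences of 11 residues or fewer, counted from the first cysteine to the last residue that the contig table gives. They were taken from cells with exactly 1 productive TCRα chain, by length alone. Of 3237 different CDR3α, 256 were short, and they were carried by 434 of 6982 cells, or 6.22% (5.66 to 6.81). A range in parentheses after a share is its exact 95% interval (Clopper-Pearson). It covers counting error alone, and cells of 1 clone are not independent of each other.

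Thymocytes of 8 female mice aged 7 to 12 weeks, labelled C56Bl/6- Tcliβ x TCRα+/- x Foxp3-GFP, were pooled and sorted into 6 populations. All mice thus carried the Tcliβ transgene, 1 intact TCRα allele and a Foxp3 reporter, and the sort kept cells with Vα2 on their surface, a V region that the TRAV14 genes encode. Each population had its own hashtag. The earliest were the CD4+CD8+ stage (DP), then the CD4 single-positive stage (CD4 SP). The regulatory T cell (Treg) progenitors were those with CD25 (CD25+ TRP) and those with low Foxp3 (Foxp3lo TRP). Mature Treg were split by the surface enzyme CD73 into CD73- Treg and CD73+ Treg. Below, stage order means the order of this list, and no sequence in time is meant between the progenitors or between the Treg populations. Whole thymus gave the DP cells, and CD8-depleted thymus gave the others. Each population was 1 sorted sample of the 1 pool, so there was no replicate and no test between populations. Shares are set side by side, and intervals are said to be apart or to overlap. The gene rows of the expression matrix carry no names, so the sort could not be checked by marker genes. The V genes gave 1 check of the gate: 98.4% of short chains (427 of 434) and 97.7% of longer chains used the TRAV14 family. The check was uneven: in DP the share was 90.5% of short (67 of 74) and 91.4% of longer chains (1089 of 1192). In the other populations it was 100% of short and at least 98.0% of longer chains, so all 7 short chains with another V gene were in DP.

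The CDR3α is the loop where the V segment was joined to the J segment, and it lies over the bound peptide when the receptor meets its ligand. During joining, exonucleases trim the segment ends and the enzyme TdT adds bases that neither segment encodes. The length of the loop is therefore set by which J segment was used, by how much was trimmed and by how much was added. Because all mice carried the same TCRβ transgene and all cells were gated on Vα2, this loop is the most varied part of the receptor here.

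The segment ends and the members that recurred most are printed first, because the joins can be read from them. In the member sequences, capitals mark bases that match neither the germline V end nor the germline J end, and lower case marks bases that match one or both. The germline V end within the CDR3 was the same for all 8 TRAV14 copies used. Germline letters are from GENCODE M21 (GRCm38), where all these segments lie on chromosome 14. TRAJ13 lies at 54205741 to 54205797, TRAJ31 at 54187895 to 54187951 and TRAJ33 at 54185358 to 54185414, all on the plus strand and annotated as TCR J genes.
TRAV14 family germline end: tgtgcagcaagtg
TRAJ13 germline start: caaattctgggacttaccagaggttt
TRAJ31 germline start: ggaatagcaataacagaatcttcttt
TRAJ33 germline start: tggatagcaactatcagttgatctgg
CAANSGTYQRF (TRAJ13), 45 of its 51 cells: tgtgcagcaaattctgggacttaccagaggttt
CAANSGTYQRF (TRAJ13), 2 of its cells: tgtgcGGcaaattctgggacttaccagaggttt
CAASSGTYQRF (TRAJ13), 18 of its 24 cells: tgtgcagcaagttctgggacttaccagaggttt
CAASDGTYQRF (TRAJ13), 7 of its 8 cells: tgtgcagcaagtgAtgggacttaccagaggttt
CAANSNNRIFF (TRAJ31), 8 of its 11 cells: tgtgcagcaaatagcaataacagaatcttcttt
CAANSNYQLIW (TRAJ33), 3 of its 7 cells: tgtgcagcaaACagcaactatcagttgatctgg
13-residue TRAJ13 CDR3α, 207 of its 227 cells: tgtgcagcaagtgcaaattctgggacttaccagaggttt

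The main form of the 13-residue TRAJ13 CDR3α, shown for comparison, is the whole V end followed by the whole J start with nothing lost or added. The main form of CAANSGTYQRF used all 26 germline bases of TRAJ13 and the first 10 of the V end, and 3 bases of the join matched both segments. The main forms of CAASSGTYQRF and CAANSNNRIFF also held no base outside the germline ends, with 1 base matching both segments.

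Short CDR3α were carried by a larger share of Treg than of CD4 SP cells, while the Treg intervals overlapped those of the progenitors. By stage, the share of cells was 5.85% in DP (74 of 1266, 4.62 to 7.28) and 4.16% in CD4 SP (77 of 1849, 3.30 to 5.18). It was 6.34% in CD25+ TRP (113 of 1783, 5.25 to 7.57) and 6.34% in Foxp3lo TRP (51 of 804, 4.76 to 8.26). In the mature cells it was 10.3% in CD73- Treg (23 of 223, 6.65 to 15.1) and 9.08% in CD73+ Treg (96 of 1057, 7.42 to 10.98). Both Treg populations and CD25+ TRP had intervals apart from that of CD4 SP, the CD25+ TRP interval by a narrow margin. The CD25+ TRP interval overlapped that of CD4 SP (3.02 to 4.83) without the most frequent short CDR3 of each population (4.47 to 6.66 in CD25+ TRP). With each rearrangement counted once, CD73+ Treg (6.99 to 11.2) stayed apart from CD4 SP (4.04 to 6.67), and CD73- Treg (6.55 to 15.5) and CD25+ TRP (5.53 to 8.39) did not. The intervals of DP and of Foxp3lo TRP overlapped that of CD4 SP. By cells, CD73+ Treg overlapped CD25+ TRP, narrowly, and Foxp3lo TRP, and was narrowly apart from DP. CD73- Treg overlapped DP and both progenitor populations.

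When each different CDR3 was counted once per population, the order from CD4 SP to Treg was the same but the intervals overlapped. Short sequences then made up 6.23% of CDR3 in DP (4.87 to 7.83), 5.87% in CD4 SP (4.45 to 7.57) and 7.49% in CD25+ TRP (5.94 to 9.28). They made up 8.12% in Foxp3lo TRP (5.92 to 10.8), 10.8% in CD73- Treg (6.69 to 16.1) and 9.08% in CD73+ Treg (6.96 to 11.6).

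**Figure D1:**
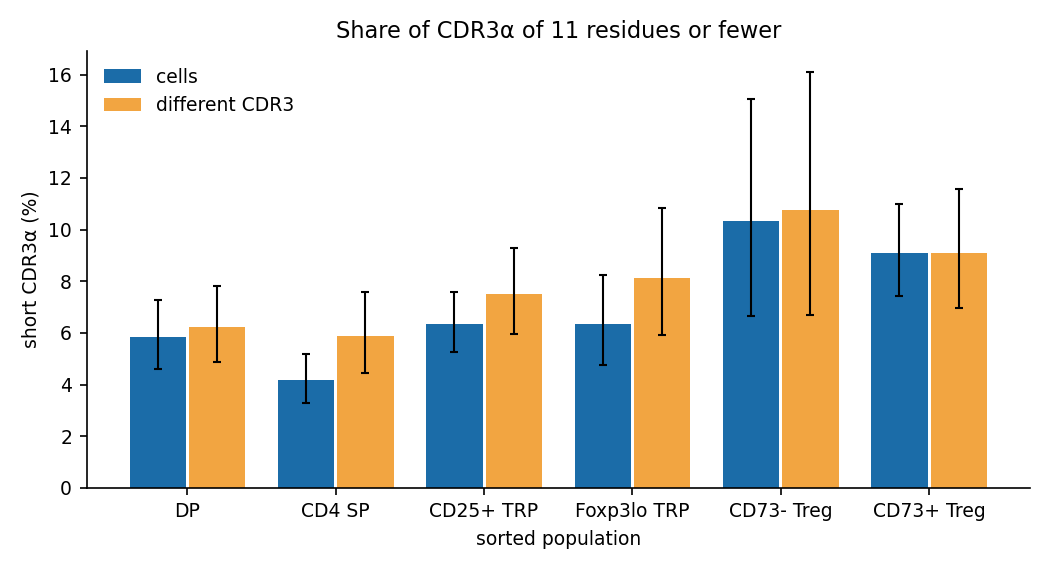
Share of cells (blue) and of different CDR3 (orange) with a CDR3α of 11 residues or fewer, in percent, for the 6 sorted populations in stage order. Bars are the shares and whiskers exact 95% intervals of counting error. The cell share is lowest in CD4 SP (4.16%) and highest in CD73- Treg (10.3%), whose interval is the widest.

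Most short CDR3α were only just inside the limit. Length 11 held 350 of the 434 cells (183 sequences) and length 10 held 71 cells (60 sequences). Length 12, just outside, held 870 cells (473 sequences). At length 11 the share of cells was 3.08% in CD4 SP (2.34 to 3.98), 8.07% in CD73- Treg (4.85 to 12.5) and 7.85% in CD73+ Treg (6.30 to 9.64). At length 12 it was 11.8% in CD4 SP (10.4 to 13.4), 9.87% in CD73- Treg (6.29 to 14.6) and 13.2% in CD73+ Treg (11.3 to 15.4), with overlapping intervals. At length 10 the shares were 1.03% in CD4 SP, 2.24% in CD73- Treg and 1.14% in CD73+ Treg, again with overlapping intervals. Of lengths 10, 11 and 12, length 11 was the one at which both Treg intervals were apart from that of CD4 SP. Mean length over all chains was 13.4 ± 1.21 residues (SD over cells, n = 6982).

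Of the short sequences, 13 were shorter than 10 residues, and each was seen in 1 cell. The shortest were a pair of 7 residues, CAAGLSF (TRAJ58) in a DP cell and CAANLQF (TRAJ24) in a CD4 SP cell. They kept 9 and 10 of the 13 bases of the V end, and each held 2 bases that match neither end.
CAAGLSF: tgtgcagcaGGgctgtcattt
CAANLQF: tgtgcagcaaACctgcagttt
Their J segments are long, with 32 germline bases inside the CDR3 in each case. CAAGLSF kept the last 10 of these and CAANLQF the last 9.

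J segments differ in how many bases they bring into the CDR3, and short chains came mostly from the shortest. Since this enters the length directly, J use is a description and not an independent result. The 9 segments with 26 or 27 germline bases were used by 68.2% of short-chain cells (63.6 to 72.6) and 29.6% of all cells (28.5 to 30.7). The 14 segments with 28 to 30 bases gave 26.5% of short-chain cells, and the 20 segments with 31 to 35 bases gave 5.30%. Across the 41 segments with at least 20 cells, germline length and the share of the segment's cells that were short had a Spearman rho of -0.78 and a Pearson r of -0.68. All segments were read from the same library. Segments of equal length still differed by cells. Among those with 26 bases, the share was 23.6% of TRAJ33 cells, 21.8% of TRAJ13, 20.8% of TRAJ31 and 12.2% of TRAJ21. It was 5.37% of TRAJ43 (2.89 to 9.01) and 4.26% of TRAJ47 (2 of 47, 0.520 to 14.5). TRAJ40, with 30 bases, reached 10.9% of its cells. By different CDR3, TRAJ43 (9.68%, 4.52 to 17.6) and TRAJ47 (6.25%, 0.766 to 20.8) overlapped TRAJ13 (14.2 to 31.8) and TRAJ33 (13.8 to 30.3). TRAJ31 (27.5%, 19.7 to 36.4) was apart from TRAJ43 and not from TRAJ47.

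**Figure D2:**
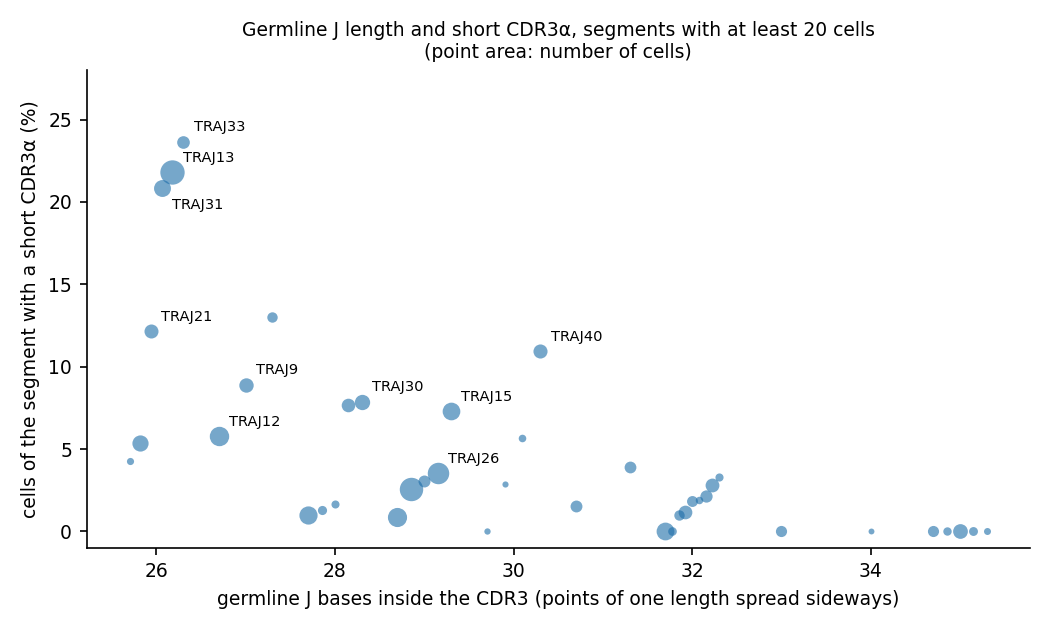
Each point is a TRAJ segment with at least 20 cells. The x axis gives its germline bases inside the CDR3, the y axis the percent of its cells with a short CDR3α, and the point area its number of cells; points of one length are spread sideways. TRAJ33, TRAJ13 and TRAJ31 lie above 20% and no segment of 33 bases or more has a short chain.

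TRAJ13 was the most used segment of short chains, with 27.4% of short-chain cells (119 of 434, 23.3 to 31.9) and 6.52% of longer-chain cells (5.93 to 7.15). TRAJ31 gave 12.7% of short-chain cells (9.69 to 16.2) and 3.19% of longer-chain cells, and TRAJ33 gave 8.06% (5.68 to 11.04) and 1.73%. Counted once per different CDR3, these segments came closer to each other: 21 short CDR3 used TRAJ13, 33 used TRAJ31 and 22 used TRAJ33. TRAJ13 sequences were thus fewer than TRAJ31 sequences and were carried by more cells each. The other segments with at least 3% of short-chain cells were TRAJ21 (5.07%), TRAJ15 (4.84%), TRAJ12 (4.61%), TRAJ40 (4.61%), TRAJ30 (3.92%), TRAJ9 (3.92%) and TRAJ26 (3.46%). Of these, TRAJ26 and TRAJ12 gave a lower share of short-chain than of longer-chain cells (6.26% and 4.99% of longer-chain cells). By different CDR3 the order turned for both, with TRAJ26 at 5.47% of short and 5.13% of longer sequences and TRAJ12 at 5.08% and 3.89%, all with overlapping intervals; by cells, the intervals overlapped for TRAJ12 as well.

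TRAJ13 gave 8.11% of short chains in DP (6 of 74), 18.2% in CD4 SP (14 of 77), 35.4% in CD25+ TRP (40 of 113), 25.5% in Foxp3lo TRP (13 of 51), 30.4% in CD73- Treg (7 of 23) and 40.6% in CD73+ Treg (39 of 96). The interval of CD73+ Treg (30.7 to 51.1) was apart from that of CD4 SP (10.3 to 28.6), while that of CD25+ TRP (26.6 to 44.95) was not. TRAJ31 gave 11.5% of short chains in CD73+ Treg (11 of 96, 5.86 to 19.6) and 17.6% in DP (13 of 74, 9.70 to 28.2), where it was the most used. TRAJ33 gave 5.21% in CD73+ Treg (5 of 96, 1.71 to 11.7) and 16.9% in CD4 SP (13 of 77, 9.31 to 27.1). The intervals overlapped for TRAJ31 and for TRAJ33. Among longer chains TRAJ13 was lower in CD73+ Treg, with 2.50%, than in CD4 SP, with 10.4%.

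Which TRAV14 copy a chain came from is uncertain, since the copies differ little. Among short chains TRAV14-1 was assigned to 23.0% (19.2 to 27.3) and TRAV14N-3 to 17.7% (14.3 to 21.7), against 17.6% and 9.79% of longer chains. TRAV14D-3-DV8 was assigned to 15.2% of short chains (12.0 to 18.9) and 26.2% of longer chains (25.1 to 27.3). The remaining copies in short chains were TRAV14N-2 (12.2%), TRAV14-2 (10.6%), TRAV14N-1 (10.6%), TRAV14-3 (4.84%) and TRAV14D-2 (4.15%). With each different CDR3 given only the copy of the first of its cells in barcode order, TRAV14N-3 came to 9.77% of short and 10.6% of longer sequences. In at least 1 cell, TRAV14N-3 was assigned to 35 different short CDR3.

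Within TRAJ13, short chains were more frequent in CD73+ Treg than in CD4 SP, and the main longer chain was less frequent. Short TRAJ13 chains, 21 different sequences, made up 0.474% of chains in DP (0.174 to 1.03), 0.757% in CD4 SP (0.415 to 1.27) and 2.24% in CD25+ TRP (1.61 to 3.04). Their share was 1.62% among Foxp3lo TRP (0.864 to 2.75), 3.14% among CD73- Treg (1.27 to 6.36) and 3.69% among CD73+ Treg cells (2.64 to 5.01). The intervals of CD73+ Treg, of CD25+ TRP and, barely, of CD73- Treg were apart from that of CD4 SP. The 13-residue TRAJ13 sequence printed with the members, whose main form holds the J segment untrimmed, made up 0.378% of CD73+ Treg chains (4 of 1057, 0.103 to 0.966) against 6.11% of CD4 SP chains (113 of 1849, 5.06 to 7.30). This sequence was picked for comparison by no set rule, with earlier results of these data known. Of TRAJ13 cells, 61.9% were short in CD73+ Treg (39 of 63, 48.8 to 73.9) and 7.07% in CD4 SP (14 of 198, 3.92 to 11.6). Leaving out cells with the 13-residue sequence, the shares were 66.1% in CD73+ Treg (39 of 59, 52.6 to 77.9) and 16.5% in CD4 SP (14 of 85, 9.31 to 26.1). By different TRAJ13 CDR3, 12 of 29 were short in CD73+ Treg (41.4%, 23.5 to 61.1) and 5 of 37 in CD4 SP (13.5%, 4.54 to 28.8), with intervals that overlap.

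**Figure D3:**
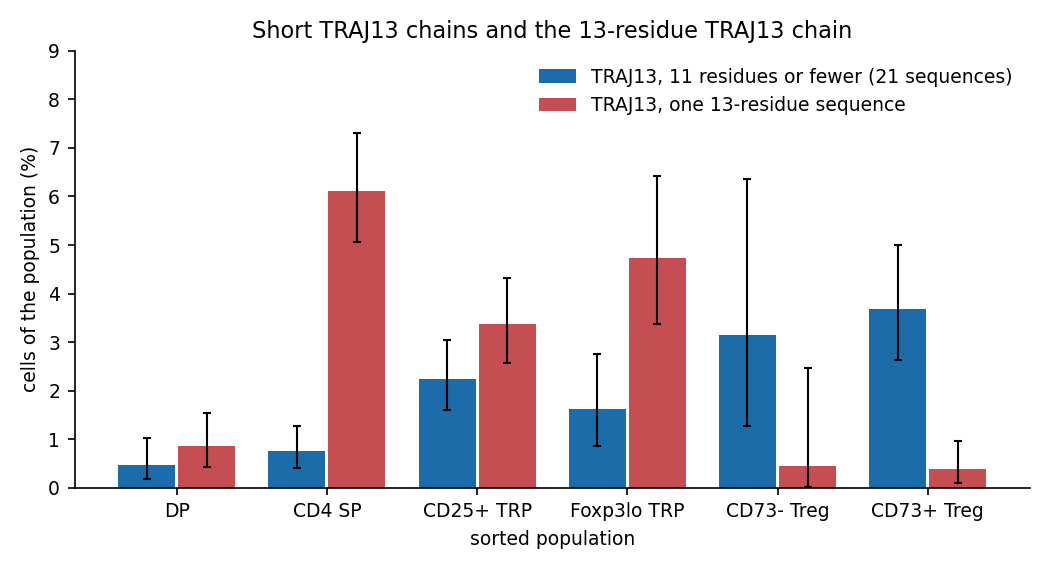
Percent of the cells of each population that carried any of the 21 short TRAJ13 sequences (blue) or the 13-residue CDR3α made of the same J segment (red). Whiskers are exact 95% intervals of counting error. Short TRAJ13 chains are at 3.69% in CD73+ Treg and 0.757% in CD4 SP, and the 13-residue sequence is at 0.378% in CD73+ Treg and 6.11% in CD4 SP.

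Outside TRAJ13 the populations lay closer together. Short chains were 5.53% of cells in DP (4.32 to 6.96), 3.82% in CD4 SP (2.94 to 4.86), 4.50% in CD25+ TRP (3.54 to 5.62) and 5.22% in Foxp3lo TRP (3.72 to 7.09). They were 7.62% in CD73- Treg (4.42 to 12.1) and 5.73% in CD73+ Treg (4.37 to 7.37). The interval of CD4 SP now overlapped those of both Treg populations and of CD25+ TRP. TRAJ13 was chosen after seeing that its short chains were more frequent in these populations than in CD4 SP. Leaving it out therefore favours closer shares, and the overlap is a description.

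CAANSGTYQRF was the most frequent short CDR3α in the whole set and in each of the 6 populations. It was seen in 5 DP cells (0.395%, 0.128 to 0.919) and 6 CD4 SP cells (0.324%, 0.119 to 0.705). Among progenitors it was seen in 16 CD25+ TRP cells (0.897%, 0.514 to 1.45) and 7 with low Foxp3 (0.871%, 0.351 to 1.79). Among mature cells it was seen in 4 CD73- Treg cells (1.79%, 0.491 to 4.53) and 13 CD73+ Treg cells (1.23%, 0.656 to 2.09). All these intervals overlap. It was the only short CDR3α found in all 6 populations, and its cells lay in 13 of the 15 deposited clusters. Its main nucleotide form, with no base outside the germline ends, was found in all 6 populations and with 6 assigned TRAV14 copies.

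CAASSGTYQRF was carried by 24 cells: 4 CD4 SP, 10 CD25+ TRP and 10 CD73+ Treg. It was not seen among 1266 DP cells (a count of 0 allows up to 0.237%), 804 Foxp3lo TRP cells (up to 0.373%) or 223 CD73- Treg cells (up to 1.35%). It is 1 of 9 sequences that start with CAAS, end with GTYQRF and differ in the residue between, a set chosen after its values were seen. No DP cell of 1266 carried one of the set, where a count of 0 allows up to 0.237%. The set reached 0.270% among CD4 SP (5 cells, 0.0879 to 0.630) and 1.07% among CD25+ TRP cells (19 cells, 0.643 to 1.66). It reached 0.373% among Foxp3lo TRP (3 cells, 0.0770 to 1.09), 1.35% among CD73- Treg (3 cells, 0.278 to 3.88) and 2.08% among CD73+ Treg (22 cells, 1.31 to 3.13). The interval of CD73+ Treg was apart from that of CD4 SP, and that of CD25+ TRP was so by a narrow margin (0.643 against 0.630). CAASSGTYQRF alone gave 4 of the 5 CD4 SP, 10 of the 19 CD25+ TRP and 10 of the 22 CD73+ Treg cells. Given how the set was chosen, these gaps are a description and not an independent result. Among the frequent members of the set, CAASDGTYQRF was found in 2 CD25+ TRP cells, 1 low-Foxp3 progenitor, 1 CD73- Treg and 4 CD73+ Treg cells, and in no CD4 SP cell of 1849 (up to 0.162%). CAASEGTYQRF was found in 1 CD25+ TRP, 1 CD73- Treg and 3 CD73+ Treg cells, and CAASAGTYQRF in 3 CD25+ TRP, 1 Foxp3lo TRP and 1 CD73- Treg cells.

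Other recurrent members used other J segments. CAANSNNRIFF (TRAJ31) was found in 5 populations, with 3 cells in DP, 2 in CD25+ TRP, 3 in the low-Foxp3 progenitors, 1 in CD73- Treg and 2 in CD73+ Treg, and in no CD4 SP cell of 1849 (a count of 0 allows up to 0.162%). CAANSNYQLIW (TRAJ33) was found in 4 CD4 SP cells and in 1 cell each of CD25+ TRP, Foxp3lo TRP and CD73- Treg. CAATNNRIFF (TRAJ31, 10 residues) was found in 1 DP, 3 CD4 SP and 1 Foxp3lo TRP cell. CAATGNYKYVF (TRAJ40) was found in 1 CD4 SP, 1 CD25+ TRP and 3 CD73+ Treg cells. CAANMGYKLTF (TRAJ9) was found in 1 CD25+ TRP and 3 CD73+ Treg cells, and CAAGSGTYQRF (TRAJ13) in 4 CD25+ TRP and 1 CD73+ Treg cell.

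Most short sequences were seen once. Of the 256, 204 were in 1 cell (79.7%), 28 in 2 cells and the rest in more. Of longer CDR3, 72.6% were seen once, and cells per CDR3 were 1.70 for short and 2.20 for longer chains. In CD73+ Treg they were 1.66 and 1.65. Short chains held fewer different CDR3 than expected for as many longer-chain cells, in the pooled set and, with all sequences, in each population. That expectation picks single cells from a larger set and so splits repeats, while the short set keeps every cell of its sequences. It therefore cannot tell whether short chains were less varied. The 434 short-chain cells held 256 different CDR3, while the exact expectation for 434 longer-chain cells was 339. In CD73+ Treg, 96 short-chain cells held 58 CDR3 (77.1 expected from longer chains), and in CD4 SP 77 cells held 55 (66.2 expected). In CD25+ TRP, 113 cells held 76 (99.3 expected), and in DP 74 cells held 68 (72.9 expected). Leaving out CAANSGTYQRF, which takes cells from the short side, 383 cells held 255 short CDR3 (304 expected). In CD73- Treg the order then turned, with 19 short CDR3 against 18.5 expected, as it did in Foxp3lo TRP, with 41 against 39.9. In CD73+ Treg (57 against 67.4), CD25+ TRP (75 against 86.4), CD4 SP (54 against 61.5) and DP (67 against 68.1) it did not. No counting range was computed for these expectations. The limit given for the method holds for each of them, so where the order turned or held is no result on variety.

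Rearrangements, meaning different CDR3 nucleotide sequences with their J segment, numbered 304 for the 256 short CDR3. Of the 52 short CDR3 seen in at least 2 cells, 33 had more than 1 rearrangement (63.5%, 49.0 to 76.4), against 71.5% of longer CDR3 with 2 to 51 cells (580 of 811, 68.3 to 74.6), with overlapping intervals. The most were 6, in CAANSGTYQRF and in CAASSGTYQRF, and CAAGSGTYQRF and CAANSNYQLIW had 4 each. Longer CDR3 carried by 24 to 51 cells had 4.79 rearrangements on average (14 sequences). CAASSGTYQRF had 5 rearrangements beside its main form, and the one that follows held the most bases outside the germline ends, 6.
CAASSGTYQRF, 1 cell: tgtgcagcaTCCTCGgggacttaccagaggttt

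Sharing between populations was limited by the many single cells. Of the 256 short CDR3, 218 were in 1 population, 21 in 2, 12 in 3, 3 in 4, 1 in 5 and 1 in all 6. Among those with at least 2 cells, 73.1% were in more than 1 population (38 of 52, 59.0 to 84.4), against 81.4% of longer CDR3 with 2 to 51 cells (78.5 to 84.0), with overlapping intervals. By clone size, the shares were 50.0% of short (14 of 28, 30.6 to 69.4) and 69.0% of longer CDR3 (64.1 to 73.6) with 2 cells. With 3 cells they were 100% (8 of 8) and 82.1%. CD73+ Treg shared 13 short CDR3 with CD25+ TRP, which was 22.4% of the 58 in CD73+ Treg and 17.1% of the 76 in CD25+ TRP. It shared 8 with CD4 SP, 13.8% of its own and 14.5% of the 55 in CD4 SP. It shared 4 with Foxp3lo TRP (6.90% of its own and 9.52% of 42) and 4 with CD73- Treg (6.90% and 20% of 20). These lists differ in size and were not thinned to a common number. Sharing of longer CDR3 between the same pairs was not computed, so whether these counts are particular to short chains was not tested.

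Short rearrangements differed from longer ones in each part of the join. Per rearrangement, counted once over all cells, the CDR3 was 32.0 ± 2.05 bases in short (SD, n = 302) and 41.0 ± 3.36 bases in longer chains (n = 3930), a difference of -9.02. The matched J part was 20.6 ± 3.40 bases in short and 26.2 ± 3.12 in longer chains, a difference of -5.59. Of this, -2.12 lay in the germline J length (27.5 and 29.6 bases) and the rest in J trimming, with 6.89 ± 3.73 bases lost in short and 3.42 ± 2.53 in longer chains. The V part was 9.23 ± 2.34 bases in short and 11.3 ± 1.93 in longer chains, a difference of -2.04. Bases matching neither end numbered 2.29 ± 1.81 in short and 3.59 ± 2.07 in longer chains, a difference of -1.30. The J side thus held more of the difference in length than the V side and the added bases together. These SDs are over rearrangements, not over samples, and the rule fixed the total.

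Joins with no base outside the germline ends were 17.2% of short rearrangements (52 of 302, 13.1 to 22.0) and 5.04% of longer rearrangements (198 of 3930, 4.38 to 5.77). Joins in which at least 1 base matched both ends were 8.28% (25 of 302) and 1.68% (66 of 3930). A whole J start was rarer in short (3.31%, 10 of 302) than in longer chains (16.4%). The length limit itself favours trimmed ends and few added bases, so these gaps are a description and not an independent result. Joins without an outside base were 16.1% at 10 residues (10 of 62, 8.02 to 27.7) and 17.2% at 11. Beyond 11 residues they fell with length, to 12.8% at 12, 5.47% at 13 and 3.43% at 14. By population, joins without an outside base were 16.4% of short rearrangements in DP (11 of 67, 8.49 to 27.5), 27.4% in CD4 SP (17 of 62, 16.9 to 40.2), 19.5% in CD25+ TRP (17 of 87, 11.8 to 29.4) and 18.2% in Foxp3lo TRP (8 of 44, 8.19 to 32.7). They were 23.8% in CD73- Treg (5 of 21, 8.22 to 47.2) and 25.4% in CD73+ Treg (17 of 67, 15.5 to 37.5). All these intervals overlap, and no difference between populations was detectable at this depth.

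**Figure D4:**
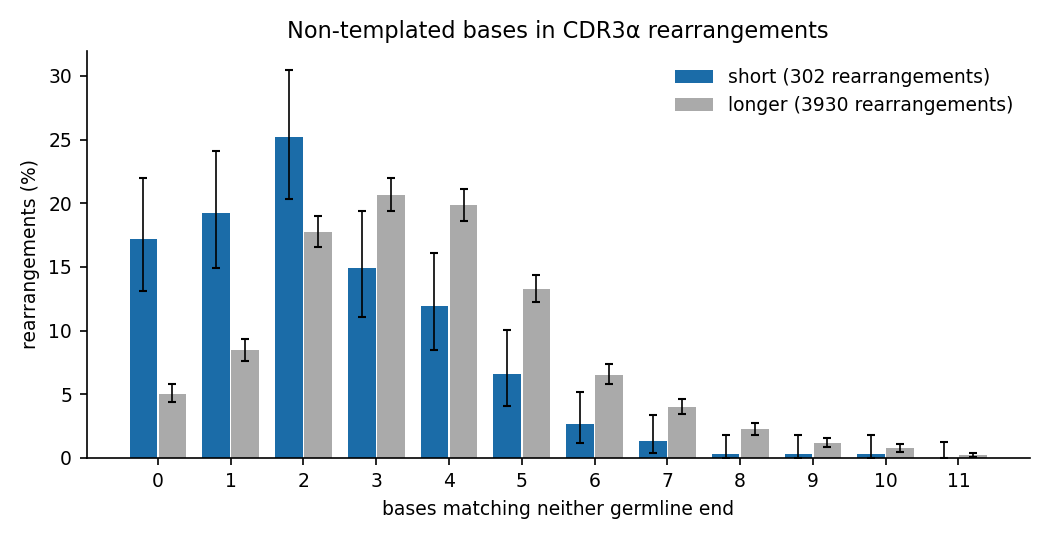
Percent of rearrangements by the number of CDR3 bases that match neither the germline V end nor the germline J end, for short (blue, 302) and longer chains (grey, 3930). Whiskers are exact 95% intervals of counting error. Short rearrangements have no such base in 17.2% and longer ones in 5.04%, and rearrangements with 12 or more such bases are not drawn. The length limit itself favours few such bases.

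The V-encoded start of the loop was shorter in the protein too, which the length limit itself favours. Over different CDR3 of at least 10 residues, 25.1% of short (61 of 243, 19.8 to 31.04) and 57.1% of longer sequences (55.3 to 58.9) started with CAAS, the residues that the whole TRAV14 end encodes. An asparagine at position 4 was found in 9.05% of short (22 of 243, 5.76 to 13.4) and 2.11% of longer sequences (1.63 to 2.70). It was carried by 22.6% of short-chain and 1.62% of longer-chain cells, and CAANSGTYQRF is among these sequences. Leaving out the first 4 and last 5 residues, 4.93% of the middle residues of short and 5.39% of longer CDR3 were acidic (aspartate or glutamate). Basic residues (lysine, arginine or histidine) were 4.46% and 4.14%, and hydrophobic residues (alanine, phenylalanine, isoleucine, leucine, methionine, valine, tryptophan or tyrosine) were 21.6% and 23.1%. Counted over cells, hydrophobic residues were 14.5% of the middle residues of short and 23.8% of those of longer chains, so the closeness held by different CDR3 and not by cells.

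By expression cluster, kept by the authors' numbers, short chains were most frequent in cluster 7 (10.5%, 56 of 531, 8.07 to 13.5) and least in cluster 1 (2.91%, 32 of 1098, 2.00 to 4.09) among clusters with at least 100 chains. Cluster 5 held 8.94% (6.81 to 11.5), cluster 3 held 8.38% (6.11 to 11.2) and cluster 2 held 4.68% (3.49 to 6.13). Clusters 4 and 8, whose chains were all from DP, held 5.16% and 5.61%, and cluster 6, mostly DP, held 6.80%. Cluster 9, whose chains were all from CD73+ Treg, held 5.98% (3.31 to 9.83).

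The clusters also separated cells of 1 population. Among CD25+ TRP cells, short chains were 9.26% in clusters 5 and 7 (75 of 810, 7.35 to 11.5) and 3.61% in clusters 1 and 2 (21 of 582, 2.25 to 5.46), with intervals apart. This grouping of clusters was chosen with earlier results known. By different CDR3 the shares were 9.39% (7.07 to 12.2) and 4.72% (2.82 to 7.36), which overlap. Without TRAJ13 chains they were 6.31% (4.67 to 8.30) and 3.24% (1.90 to 5.13), which also overlap. CD4 SP cells in clusters 1 and 2 held 3.66% (52 of 1420, 2.75 to 4.77), close to the CD25+ TRP cells of the same clusters. CD73+ Treg cells held 8.97% in cluster 3 (33 of 368, 6.25 to 12.4), 10.3% in cluster 0 (11 of 107, 5.24 to 17.7), 19.6% in cluster 10 (9 of 46, 9.36 to 33.9) and 5.98% in cluster 9 (14 of 234), with overlapping intervals.

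**Figure D5:**
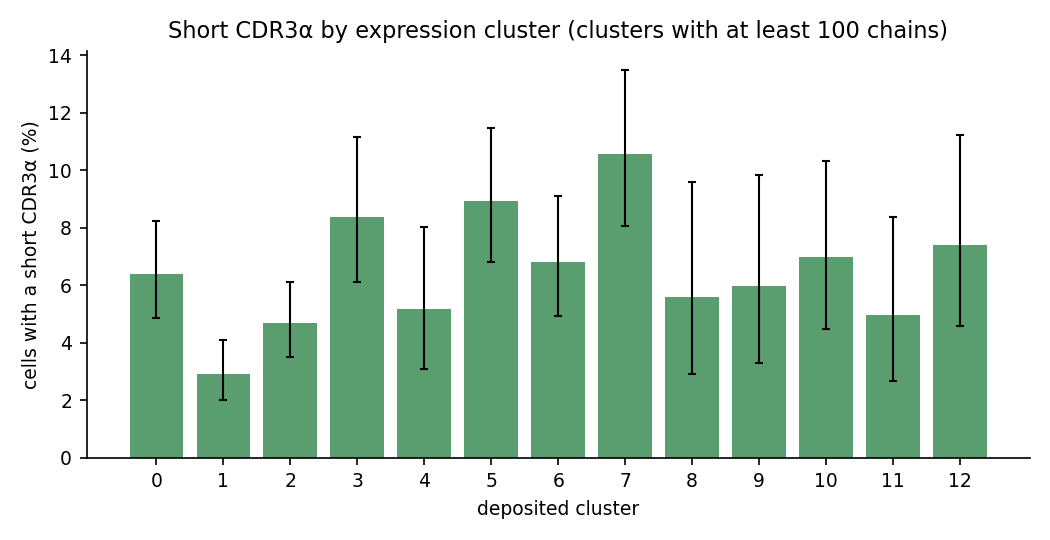
Percent of chains that were short in each deposited expression cluster with at least 100 chains, over all populations. Whiskers are exact 95% intervals of counting error. Cluster 7 (10.5%) and cluster 1 (2.91%) are the extremes and their intervals are apart.

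Contig depth was alike for short and longer chains, and depth per cell was less so. The median contig had 18 UMIs in both, and 1 short chain had fewer than 3. Within populations, contig medians were 14, 19, 23, 13, 17 and 20 UMIs for short chains from DP to CD73+ Treg in stage order, and 14, 19, 22, 14, 17 and 19 for longer chains. Short-chain CD25+ TRP cells had a median of 3607 UMIs per cell, against 3196.5 in longer-chain cells of that population, and whether this bears on their clusters was not tested. In Foxp3lo TRP the order was the other way, with medians of 1927 UMIs and 950 genes in short-chain cells and 2165 UMIs and 1018 genes in longer-chain cells. In CD73+ Treg the medians were 3095.5 UMIs in short-chain and 2928 UMIs in longer-chain cells. Over all cells, medians ran from 1457 UMIs in DP to 3248 in CD25+ TRP, and the matrix held 34190869 UMIs in 12208 cells.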

How the data were processed

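Gene expression, hashtag and TCRα-enriched libraries came from the same cells by 10x Genomics 5' chemistry, per the labels' protocols. Cell Ranger 3.1.0, Seurat 3.1.1, mm10 and GRCm38 are named in the submitters' processing notes, without roles. The sources used here do not give cell filters or hashtag calling. The deposited contig table gives UMI counts, the V and J gene and the CDR3 of 21598 contigs. The deposited expression matrix holds UMI counts and was used for totals per cell only. The deposited metadata list population and cluster without barcodes. Taken in the matrix's barcode order, the clonotype matched for 6982 of 6982 cells.

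The class named Treg was read as CD73- Treg. No doublet caller was run, and cells with 2 productive α chains (330) were left out. V and J matches were the longest exact runs from either end of the CDR3 against GENCODE M21 sequences, possible for 432 short and 6543 longer cells. An outside base can match by chance, so their number is a lower count. Expected numbers of different CDR3 are exact hypergeometric means. Where 0 cells were seen, the limit given is 3 cells of the total. The scripts were tested on simulated data (Python 3.11.15, pandas 2.3.3, SciPy 1.17.1). Segments named by rule had at least 3% of short-chain cells. TRAJ43 and TRAJ47 were named after their values were seen, and TRAJ24 and TRAJ58 as segments of the shortest CDR3. Named CDR3 were the 10 most frequent, the most frequent per population, the 5 with most rearrangements, those in 5 or more populations and the shortest. Members and lists were chosen with earlier results of these data known.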

Additional observations from a re-analysis of the deposited data

Results flagged for a closer look

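Short CDR3α also occurred in chains outside the main comparison. Among cells with 2 productive α chains, 11.8% carried at least 1 short chain (39 of 330, 8.54 to 15.8), and 12 of their 32 different short CDR3 were among the 256. Counted per chain this was 6.06% (40 of 660, 4.36 to 8.16). Among barcodes outside the expression matrix, which have no hashtag and so no population, 6.66% of those with 1 productive α chain were short (183 of 2747, 5.76 to 7.66), and 40 of their 111 different short CDR3 were among the 256. Both are listed because the comparisons did not use these chains. That short chains were present is no test, and neither value was compared with a population.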

How the results depend on the processing

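No paired analysis was possible because each population was 1 sorted sample and the result comes from no test. Shares of cells stayed inside their own intervals in all populations with every productive chain counted, TRAV14 chains only, at least 3 UMIs per contig, without the most frequent short CDR3, without the 5% of cells with most UMIs, without clusters under 5% of a population, without cluster 9, and without cells with a β chain other than TRBV19. Under these, both Treg intervals stayed apart from that of CD4 SP. The CD25+ TRP interval did not without the most frequent short CDR3, nor without the 5% of cells with most UMIs (5.26 to 7.63, against 3.37 to 5.30 in CD4 SP). A limit of 10 residues gave 1.66%, 1.08%, 0.785%, 1.37%, 2.24% and 1.23% in stage order from DP to CD73+ Treg, so CD25+ TRP and not CD4 SP was lowest, and no interval was apart from that of CD4 SP. A limit of 12 residues gave 19.0%, 16.0%, 20.02%, 16.2%, 20.2% and 22.3% in the same order, with CD73+ Treg highest and CD73- Treg no longer apart from CD4 SP. Each rearrangement counted once gave 5.25% in CD4 SP, and CD73+ Treg alone stayed apart from it. Without TRAJ13, chosen after seeing the data, CD25+ TRP came to 4.50% and CD73+ Treg to 5.73%, and no interval was apart from that of CD4 SP. Among different CDR3 with at least 2 cells, shares were 4.34%, 4.72%, 5.81%, 5.12%, 9.26% and 7.93% in stage order, so DP and not CD4 SP was lowest. Counting each cell, also added, joins without an outside base were 33.1% of short and 15.1% of longer chains. With 1 mismatch allowed they were 5.83% of longer rearrangements. CD73- Treg, with 223 chains, had the widest intervals.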

Other observations

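Hydrophobic residues in the middle of the short loop, without its first 4 and last 5 residues, are given here by population. Acidic, basic and charged residues were counted in the same way and are not given by population. At least 1 hydrophobic residue was found there in 7 of 54 short CDR3 of CD4 SP (12.96%, 5.37 to 24.9). The other populations had 34.9% in DP (22 of 63, 23.3 to 48.0), 34.2% in CD25+ TRP (25 of 73, 23.5 to 46.3), 25.6% in Foxp3lo TRP (10 of 39, 13.04 to 42.1), 30% in CD73- Treg (6 of 20, 11.9 to 54.3) and 33.3% in CD73+ Treg (19 of 57, 21.4 to 47.1). All these intervals overlap that of CD4 SP. Longer CDR3 had 71.2% in CD4 SP (68.1 to 74.2) and 71.4% in CD73+ Treg (67.6 to 75.1). Their middle part is larger, with 14072 residues over 2981 longer CDR3 against 426 over 243 short CDR3. Shares of short and longer CDR3 with at least 1 such residue are therefore not alike in measure.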
